A study of Homo sapiens with 3 samples.

Results

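The aldo-keto reductases are NADPH-dependent enzymes, most of them cytosolic, that reduce aldehydes and ketones to alcohols. The genes described here are AKR1A1, AKR1B1, AKR1B10, AKR1C1, AKR1C2, AKR1C3 and AKR7A2, taken by gene name from the deposited table: 7 genes under 8 identifiers, because AKR1C3 is listed under 2, of 50868 identifiers in all. RNA was sequenced from AGS cells, an established human gastric adenocarcinoma line. The groups were AGS cells given 12 µM SFA, AGS cells given 18 µM SFE, and AGS cells given the solvent DMSO as the control, each cultured for 48 h. Each group is 1 library, so no value has a replicate and no difference could be set against the spread between cultures. SFA and SFE are the labels' names for the compounds, and their doses differ.

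As background, members of this family handle steroids, prostaglandins, retinal, sugars and the reactive aldehydes that come from lipid oxidation. The AKR1C enzymes reduce keto groups of steroid hormones, AKR1B1 and AKR1B10 reduce sugars, retinal and lipid aldehydes, and AKR1A1 and AKR7A2 reduce a wide range of aldehydes. In human cells the AKR1C genes and AKR1B10 are known targets of NRF2, a transcription factor that answers oxidants and electrophiles. NRF2 binds the antioxidant response element, whose core is written TGACNNNGC.

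The AKR1C genes lie side by side on chromosome 10, and their start regions show how alike they are. The windows below run from 250 bases before to 50 bases after a RefSeq transcription start (GRCh38.p14). They are shown because the AKR1C genes are the ones that stood far above DMSO, and the capitals mark the longest run of bases found in every AKR1C window, 12 bases long. The AKR1C1 window is chr10:4963165-4963464 on the plus strand, the AKR1C2 window chr10:5003808-5004107 on the minus strand, and the AKR1C3 windows chr10:5048531-5048830 and chr10:5094164-5094463 on the plus strand.
AKR1C1: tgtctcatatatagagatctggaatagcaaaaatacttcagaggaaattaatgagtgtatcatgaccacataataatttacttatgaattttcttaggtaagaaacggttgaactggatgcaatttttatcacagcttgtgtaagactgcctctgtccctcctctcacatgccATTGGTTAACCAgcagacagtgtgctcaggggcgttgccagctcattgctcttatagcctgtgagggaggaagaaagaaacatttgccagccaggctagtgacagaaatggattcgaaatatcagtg
AKR1C2: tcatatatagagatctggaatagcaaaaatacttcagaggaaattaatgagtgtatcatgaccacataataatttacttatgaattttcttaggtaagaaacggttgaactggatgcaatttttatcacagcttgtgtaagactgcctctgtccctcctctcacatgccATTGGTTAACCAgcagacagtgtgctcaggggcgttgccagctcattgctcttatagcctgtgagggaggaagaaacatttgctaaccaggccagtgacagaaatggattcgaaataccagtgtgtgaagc
AKR1C3, upstream start: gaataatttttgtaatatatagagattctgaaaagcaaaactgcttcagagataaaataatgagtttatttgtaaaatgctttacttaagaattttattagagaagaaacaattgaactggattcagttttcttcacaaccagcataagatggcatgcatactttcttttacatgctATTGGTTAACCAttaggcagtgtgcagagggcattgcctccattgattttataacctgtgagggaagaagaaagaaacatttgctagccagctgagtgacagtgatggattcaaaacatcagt
AKR1C3, downstream start: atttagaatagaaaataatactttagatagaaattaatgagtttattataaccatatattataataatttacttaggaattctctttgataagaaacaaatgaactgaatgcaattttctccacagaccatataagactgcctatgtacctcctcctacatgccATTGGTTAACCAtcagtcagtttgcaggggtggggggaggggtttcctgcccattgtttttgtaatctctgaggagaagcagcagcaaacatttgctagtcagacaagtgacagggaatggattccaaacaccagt

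The AKR1C1 and AKR1C2 windows were identical at 288 of 292 aligned bases (98.6%), although they face opposite ways on the chromosome. Identity between the AKR1C1 window and the AKR1C3 windows was 80.9% and 80.2%. This measure leaves gaps out, and by it windows of members at different loci were 59.0% to 74.9% identical. The shared run ATTGGTTAACCA holds a CCAAT box on the other strand, and it lies 77 bases before the AKR1C1 start, 81 before the AKR1C2 start, and 73 and 86 before the AKR1C3 starts. Of 35116 such windows in the RefSeq table, of which some overlap because a gene can have several starts, 5 held the run on either strand: the 4 AKR1C windows and 1 of PPFIA2. The letters CCAAT alone, searched on both strands, occurred in 34.6% of all windows.

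The antioxidant response element core TGACNNNGC, searched on both strands, occurred in 13.3% of all windows and in none of the AKR1C windows. A looser core, TGANNNNGC, which takes in every match of the stricter one, occurred in 41.8% of all windows, among them the AKR1C1 window, 41 bases before the start, and the AKR1C2 window, 45 bases before it. The AP-1 site TGAGTCA, searched on both strands, occurred in 4.95% of all windows and in none of the members' windows. These windows do not reach far upstream, and a missing match says only that the letters are not in them. The AKR7A2 window, chr1:19312097-19312396 on the minus strand, held the stricter core at 3 places, 167, 156 and 95 bases before the start. It is shown with those cores in capitals, since AKR7A2 was among the members closest to the DMSO level. The listed span of another gene, PQLC2, begins at 19312326, inside this window. By counts PQLC2 was 2.11-fold above DMSO with SFA (1.69 to 2.64) and 2.03-fold with SFE (1.62 to 2.54). Whether the cores bear on either gene was not tested.
AKR7A2: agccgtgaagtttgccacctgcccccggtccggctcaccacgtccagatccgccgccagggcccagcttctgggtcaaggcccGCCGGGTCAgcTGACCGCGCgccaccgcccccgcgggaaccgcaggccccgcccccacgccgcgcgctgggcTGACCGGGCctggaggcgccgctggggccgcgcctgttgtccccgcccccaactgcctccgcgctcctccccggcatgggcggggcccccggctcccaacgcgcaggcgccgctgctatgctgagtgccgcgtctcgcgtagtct

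The libraries held 13639844 counts with SFA, 13644676 with SFE and 18767232 with DMSO. The 7 genes took 0.174% of them with SFA, 0.136% with SFE and 0.0701% with DMSO. Some epithelial keratins were abundant. KRT18 stood at 292 FPKM (counts scaled by gene length and by library total) with SFA, 294 with SFE and 534 with DMSO. KRT7 stood at 161, 151 and 118 FPKM, so KRT18 and KRT7 differed from DMSO in opposite directions. KRT19, another keratin, was low (0.103 FPKM with SFA, 0.0514 with SFE and 0.162 with DMSO). EPCAM was low as well (0.223, 0.0685 and 0.336 FPKM). Of 9 epithelial markers 5 reached 1 FPKM. CDH1, which codes for E-cadherin, was low in every library (0.162 FPKM with SFA, 0.0811 with SFE and 0.147 with DMSO), and of 10 gastric markers 2 reached 1 FPKM, while TFF1, TFF2 and GKN1 were listed at 0 in all 3 libraries. Of 9 fibroblast markers 4 reached 1 FPKM, and the list summed to 16.9 FPKM with SFA, 20.1 with SFE and 31.1 with DMSO. No leukocyte, endothelial, erythroid or hepatocyte marker reached 1 FPKM, and those lists summed to at most 1.17 FPKM in any library. The part of these marker differences in the results was not tested, and in bulk RNA fewer cells of a type and less RNA per cell cannot be told apart.

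The AKR1C genes were far higher with both compounds than with DMSO, AKR1B1 was moderately higher, AKR1B10 was 1.35-fold the DMSO level with SFA and 1.0-fold with SFE, and AKR1A1 and AKR7A2 stood close to DMSO. Of the 7 genes, 3 were at least 2-fold higher with SFA and 3 with SFE, in each case AKR1C1, AKR1C2 and AKR1C3, and none was at least 2-fold lower. Here 2-fold means a difference of at least 1 in log2(FPKM + 1), and AKR1C3 is taken by its identifier with the higher mean FPKM. Of the 11680 genes that reached 1 FPKM somewhere among the 3 libraries, 1.36% were at least 2-fold higher with SFA and 1.37% with SFE, and 1.34% and 1.01% were at least 2-fold lower. All 7 members passed that level filter. The median difference of the 7 genes was 0.66 with SFA and 0.54 with SFE on the log2(FPKM + 1) scale, beside medians over all genes of 0.01 and 0.03. Both comparisons use the same DMSO library, so they are not independent of each other.

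**Figure D1:**
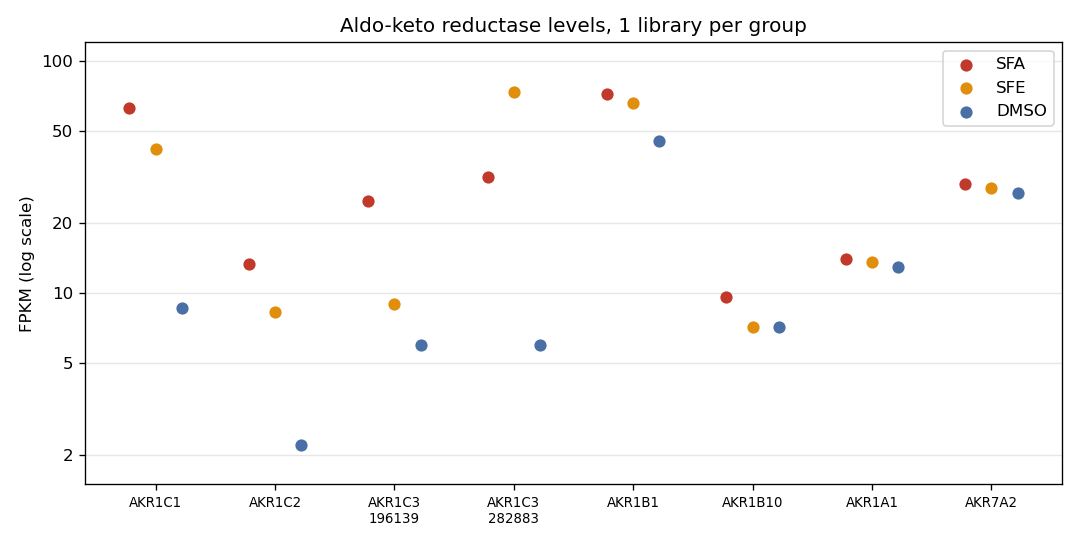
FPKM of each aldo-keto reductase identifier on a log axis, 1 point per library, with SFA, SFE and DMSO from left to right; the 2 AKR1C3 identifiers carry their last 6 digits. The AKR1C points with SFA and SFE lie above the DMSO point, from 8.25 FPKM (AKR1C2 with SFE) to 73.4 FPKM (ENSG00000282883 of AKR1C3 with SFE), while the AKR1A1 points lie between 13.0 and 14.0 FPKM.

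AKR1C1 converts progesterone to a less active form. It was listed at chromosome 10, 4963253 to 5107522 (hg38), with 8719 counts with SFA, 5823 with SFE and 1661 with DMSO. These are 62.4, 41.6 and 8.63 FPKM with SFA, SFE and DMSO, so both treated libraries lay well above the control and SFA was the higher of them. By counts AKR1C1 was 7.22-fold above DMSO with SFA (95% counting interval 6.85 to 7.62) and 4.82-fold with SFE (4.57 to 5.1). Among all 11680 genes its difference on the log2(FPKM + 1) scale ranked number 4 from the top with SFA and number 15 with SFE. The share of AKR1C1 in the counts of AKR1C1, AKR1C2 and AKR1C3 together was 66.4% with SFA (exact 95% binomial interval 65.6 to 67.2), 67.0% with SFE (66.0 to 68.0) and 57.1% with DMSO (55.3 to 58.9).

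AKR1C2, which reduces dihydrotestosterone to a weak androgen, was the least abundant per length of AKR1C1, AKR1C2 and AKR1C3. It had 1750 counts with SFA, 1086 with SFE and 400 with DMSO, which are 13.3, 8.25 and 2.21 FPKM. After division by the library totals its counts were 6.02-fold those of DMSO with SFA (5.4 to 6.73) and 3.73-fold with SFE (3.33 to 4.2). All such intervals describe counting error alone and leave out the spread between cultures. The share of AKR1C2 in the AKR1C counts differed little between libraries, at 13.3% with SFA, 12.5% with SFE and 13.8% with DMSO.

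AKR1C3 forms testosterone from androstenedione and prostaglandin F from its precursors, and its value depended on how its identifiers were read. Under ENSG00000196139 (5035354 to 5107686), the counts correspond to 25.0 FPKM with SFA, 8.97 with SFE and 6.0 with DMSO. By counts this identifier was 4.17-fold above DMSO with SFA (3.84 to 4.54) and 1.49-fold with SFE (1.35 to 1.65). Under ENSG00000282883 (5048812 to 5107503), the levels were 31.5 FPKM with SFA, 73.4 with SFE and 5.98 with DMSO. This second identifier was 5.28-fold above DMSO with SFA (4.26 to 6.58) and 12.3-fold with SFE (10.1 to 15.1). The identifiers therefore put the treated libraries in opposite orders.

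Summed counts of both identifiers put SFA above SFE. The AKR1C3 sum was 2659 counts with SFA, 1777 with SFE and 848 with DMSO, or 195, 130 and 45.2 CPM (counts scaled to a common library total). It was 4.31-fold above DMSO with SFA (3.99 to 4.67) and 2.88-fold with SFE (2.65 to 3.13). The share of the summed counts that fell on ENSG00000282883 was 15.7% with SFA (14.4 to 17.2), 54.8% with SFE (52.5 to 57.1) and 12.9% with DMSO (10.7 to 15.3). The SFE library alone thus had most AKR1C3 counts on that identifier. If AKR1C3 is taken as ENSG00000196139, a choice tried after the data were seen, 2 of the 7 genes rather than 3 were at least 2-fold higher with SFE.

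Summed FPKM gave another order for AKR1C3, 56.6 with SFA, 82.4 with SFE and 12.0 with DMSO, because the deposited FPKM of its identifiers rests on different lengths. The length implied by count and FPKM was 6561 bases for ENSG00000196139 and 972 for ENSG00000282883, so a count on the second adds more FPKM than a count on the first. ENSG00000282883 is not in GENCODE 29, where 1 transcript of AKR1C3 has the same span and the same length of 972 bases. Among 16 gene names with 2 overlapping identifiers and at least 100 counts in every library, the range of that share across the libraries was 42.0 percentage points for AKR1C3, against 41.8 for RMRP, 40.2 for RN7SL1 and a median of 13.5 over the 16. Why the split differed was not tested.

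**Figure D2:**
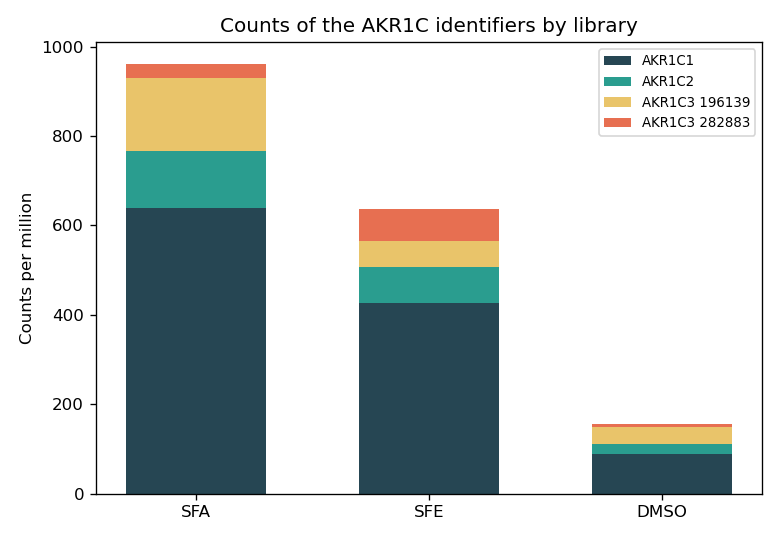
CPM of the AKR1C identifiers, stacked, in the SFA, SFE and DMSO libraries from left to right. The stacks reach 962 CPM with SFA, 637 with SFE and 155 with DMSO, and the top segment, ENSG00000282883 of AKR1C3, stands at 30.6 CPM with SFA, 71.4 with SFE and 5.81 with DMSO.

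The AKR1C genes are hard to separate by reads, so the sum of counts over AKR1C1, AKR1C2 and AKR1C3 is given as well. How reads that match several of them were counted is not known, and its effect on the sum was not tested. That sum was 13128 counts with SFA, 8686 with SFE and 2909 with DMSO. It was 6.21-fold above DMSO with SFA (5.96 to 6.47) and 4.11-fold with SFE (3.94 to 4.28). Summed deposited FPKM gave no such difference between the compounds, at 132 with SFA, 132 with SFE and 22.8 with DMSO. The summed counts made up 55.3% of all counts of the 7 genes with SFA, 46.9% with SFE and 22.1% with DMSO. In the GENCODE 29 principal transcripts the coding sequences were 98.0% identical between AKR1C1 and AKR1C2, 92.0% between AKR1C1 and AKR1C3, and 91.6% between AKR1C2 and AKR1C3. Of the 50-base windows of the AKR1C2 transcript 50.8% also occurred in an AKR1C1 transcript, and of those of the AKR1C1 transcript 28.3% occurred in an AKR1C2 transcript. In the AKR1C3 transcript 9.61% of such windows were shared with AKR1C2 and 7.68% with AKR1C1. The listed spans of all 4 AKR1C identifiers also overlap one another, so the value of each single AKR1C gene is uncertain. In GENCODE 29, by contrast, AKR1C1 ends at 4983283, AKR1C2 runs from 4987400 to 5018031 and AKR1C3 from 5035354, with no overlap among them.

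Set beside each other, the libraries of the compounds differed by a like ratio in the AKR1C genes. The CPM with SFA was 1.5 times that with SFE for AKR1C1 (1.45 to 1.55), 1.61 times for AKR1C2 (1.49 to 1.74) and 1.5 times for the AKR1C3 sum (1.41 to 1.59). For the single AKR1C3 identifiers the ratios were 2.79 (2.57 to 3.03) for ENSG00000196139 and 0.429 (0.382 to 0.482) for ENSG00000282883. The dose was 12 µM for SFA and 18 µM for SFE, so these ratios compare libraries at unlike doses.

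**Figure D3:**
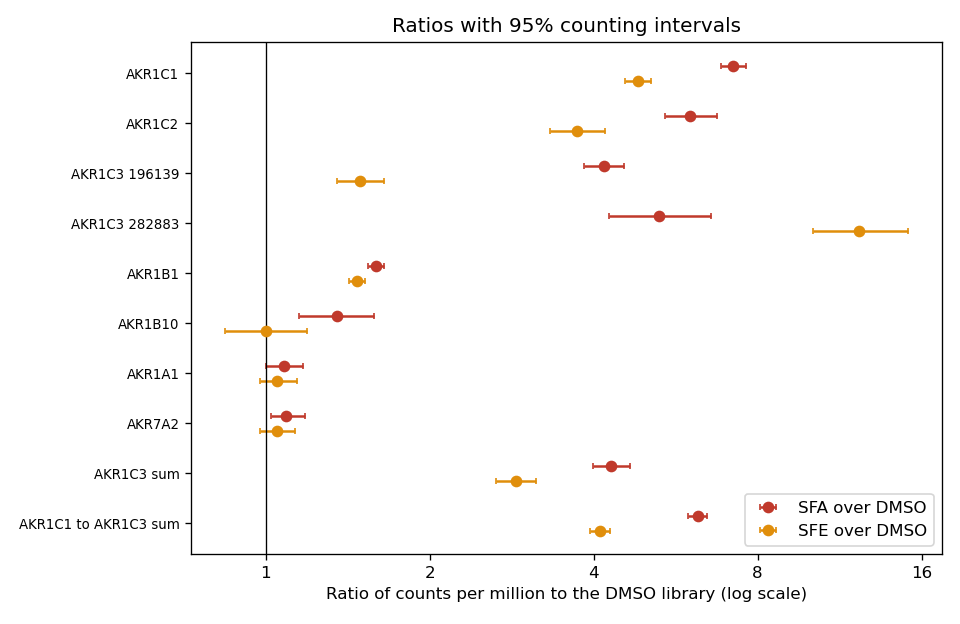
Ratio of CPM in the SFA and SFE libraries to the DMSO library for each identifier and for the AKR1C sums, on a log axis, with 95% counting intervals as bars and a line at 1. The SFE point lies right of the SFA point for ENSG00000282883 of AKR1C3 (5.28 with SFA, 12.3 with SFE) and left of it for every other entry.

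AKR1B1, aldose reductase, turns glucose to sorbitol in the polyol pathway. It was the most abundant member per length with SFA and DMSO: 71.6 FPKM with SFA, 66.0 with SFE and 45.0 with DMSO, from 7755, 7149 and 6702 counts. Both treated libraries lay above the control, 1.59-fold with SFA (1.54 to 1.65) and 1.47-fold with SFE (1.42 to 1.52), and the listed gene (chromosome 7, 134442350 to 134459284) overlaps no other. These differences lay at percentile 95.9 of all genes with SFA and 93.9 with SFE. SORD, the next enzyme of the polyol pathway, stood at 19.3 FPKM with SFA, 18.7 with SFE and 18.4 with DMSO, 1.05-fold (0.993 to 1.11) and 1.01-fold (0.96 to 1.07) the DMSO counts.

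AKR1B10, which reduces retinal and lipid aldehydes, lies beside AKR1B1 at 134527592 to 134541408. It had 316 counts with SFA, 235 with SFE and 323 with DMSO, the fewest of the 7 genes in every library, and stood at 9.58, 7.12 and 7.11 FPKM. It was 1.35-fold above DMSO with SFA (1.15 to 1.58), while with SFE the ratio was 1.0 (0.842 to 1.19). Its neighbour AKR1B15, a close copy with 11.6% of the 50-base windows of the AKR1B10 transcript, had 47, 33 and 45 counts with SFA, SFE and DMSO. Of the same windows 7.14% also occurred in AKR1B10P1. The values of AKR1B10 and AKR1B15 are therefore uncertain. The coding sequences of AKR1B1 and AKR1B10 were 79.4% identical, by a measure that gave 74.1% for AKR1A1 and AKR7A2. AKR1B10 was not among the genes that shared 50-base windows with the AKR1B1 transcript.

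AKR1A1, the aldehyde reductase that also acts on glucuronate, and AKR7A2, which reduces succinic semialdehyde and aflatoxin aldehyde, are both on chromosome 1 and overlap no other listed gene. AKR1A1 (45550543 to 45570049) stood at 14.0 FPKM with SFA, 13.6 with SFE and 13.0 with DMSO. By counts it was 1.08-fold the DMSO level with SFA (1.0 to 1.17) and 1.05-fold with SFE (0.975 to 1.14). AKR7A2 (19303965 to 19312146) stood at 29.6 FPKM with SFA, 28.4 with SFE and 27.0 with DMSO, or 1.09-fold (1.02 to 1.18) and 1.05-fold (0.977 to 1.13). All 7 genes lay above DMSO with SFA, where 51.4% of all genes did, and with SFE, where 55.2% did, but with SFE AKR1A1, AKR7A2 and AKR1B10 turned below DMSO under median-ratio scaling (0.996, 0.995 and 0.947) and under TMM scaling (0.984, 0.983 and 0.935).

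The order of levels between members depended on the gene length used. By deposited FPKM in the DMSO library AKR1B1 (45.0) and AKR7A2 (27.0) led, followed by AKR1A1 (13.0), AKR1C1 (8.63), AKR1B10 (7.11), each AKR1C3 identifier (6.0 and 5.98) and AKR1C2 (2.21). The implied lengths were 1.52 (AKR1B10) to 5.64 (AKR1B1) times those of the GENCODE 29 principal transcripts. Per kilobase of those transcripts, with the AKR1C3 identifiers summed, the DMSO library had 253 CPM for AKR1B1, 71.4 for AKR1A1, 64.9 for AKR7A2, 25.0 for AKR1C3, 13.2 for AKR1C1, 10.8 for AKR1B10 and 5.67 for AKR1C2. On that scale AKR1C3 led the AKR1C genes in every library, with 108, 72.1 and 25.0 for AKR1C3 and 95.3, 63.6 and 13.2 for AKR1C1 with SFA, SFE and DMSO.

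**Figure D4:**
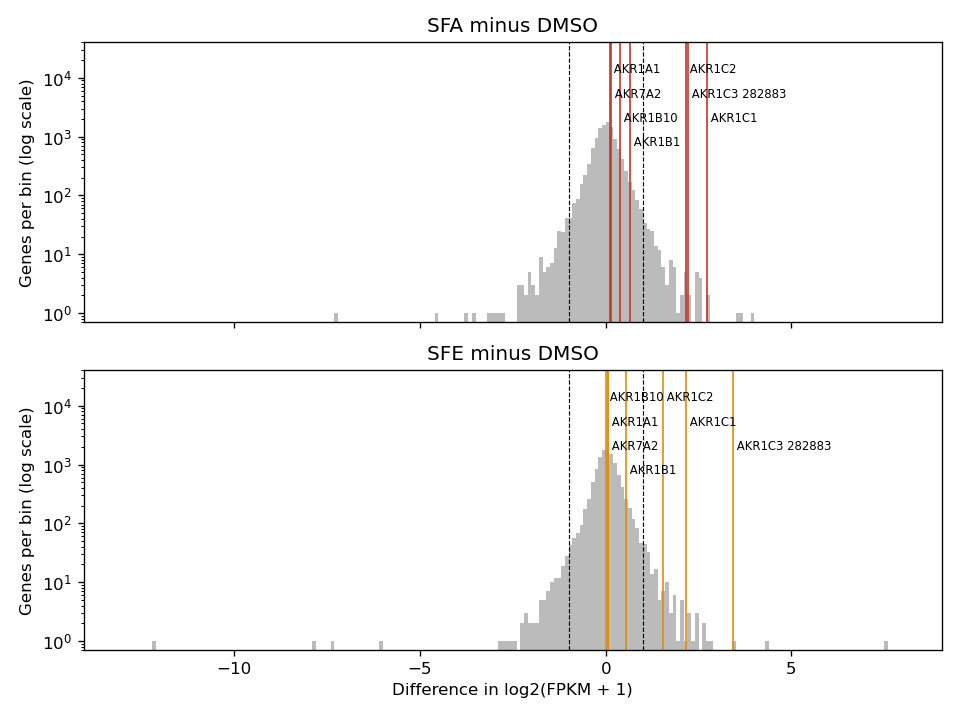
Histograms of the difference in log2(FPKM + 1) over 11680 genes, SFA minus DMSO above and SFE minus DMSO below, with the number of genes per bin on a log axis, coloured lines at the members and dashed lines at a 2-fold difference. With SFA the AKR1C lines stand at 2.16 to 2.72 and with SFE at 1.53 to 3.42, past the dashed line, and AKR1B1 stands at 0.66 and 0.54, short of it. The AKR1C3 line is that of ENSG00000282883. ENSG00000196139 is not drawn and had differences of 1.9 with SFA and 0.51 with SFE, the latter short of the dashed line.

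Most other genes of the family were low. Of 13 other family genes that were listed, 2 reached 1 FPKM, and neither was at least 2-fold from DMSO. KCNAB2, a potassium channel beta subunit with the aldo-keto reductase fold, stood at 3.84 FPKM with SFA, 4.11 with SFE and 2.57 with DMSO, 1.5-fold (1.36 to 1.64) and 1.6-fold (1.46 to 1.76) above DMSO. The pseudogene AKR7A2P1 had 10, 16 and 16 counts with SFA, SFE and DMSO. AKR1C4, an AKR1C gene best known from liver, had 1 count with SFA and was listed at 0 with SFE and DMSO, where a count of 0 allows up to 0.22 and 0.16 CPM, for counting error only. AKR1E2, AKR1D1, the bile acid 5-beta-reductase of liver, and the pseudogene AKR1C8P were listed at 0 in all 3 libraries. AKR7A3 and AKR7L, relatives of AKR7A2, had 11 and 23 counts with SFA, 13 and 18 with SFE, and 23 and 24 with DMSO.

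Among the measured genes nearest to the AKR1C cluster, none was 2-fold from DMSO. On one side KLF6, a zinc finger transcription factor gene 1137 kb away, was 0.897-fold the DMSO level with SFA (0.792 to 1.01) and 0.753-fold with SFE (0.66 to 0.857), and the next, PITRM1, a mitochondrial peptidase gene, was 1.4-fold with each compound (1.28 to 1.53). On the other side NET1, a guanine nucleotide exchange factor gene 277 kb away, was 0.799-fold (0.737 to 0.865) and 0.75-fold (0.692 to 0.814), while RP11-445P17.5, which lies nearer, had 7, 13 and 15 counts with SFA, SFE and DMSO. RP11-38M8.1, 9.9 kb from AKR1B1, was 1.7-fold above DMSO with SFA (1.14 to 2.55) and 1.61-fold with SFE (1.07 to 2.43). Past AKR1B10, BPGM, which makes bisphosphoglycerate, stood at 1.28 FPKM with SFA, 2.26 with SFE and 2.16 with DMSO. PRDX1, a peroxiredoxin gene 27.5 kb from AKR1A1, was 1.33-fold above DMSO with SFA (1.3 to 1.36) and 1.22-fold with SFE (1.2 to 1.25). PQLC2, a lysosomal amino acid transporter gene 0.18 kb from AKR7A2, was 2.11-fold (1.69 to 2.64) and 2.03-fold (1.62 to 2.54). Its differences of 0.73 and 0.69 in log2(FPKM + 1) were short of the limit of 1.

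Many other NRF2 targets were higher as well. Of 35 measured targets outside the family, 15 were at least 2-fold higher with SFA and 7 with SFE, beside 1.36% and 1.37% of all genes. The list was chosen with earlier results of these data known. CYP4F11, among the 15, passed the level filter only through the SFA library (1.03 FPKM with SFA, 0.429 with SFE and 0.0127 with DMSO). None was at least 2-fold lower, and the median differences were 0.87 and 0.55 on the log2(FPKM + 1) scale. Above DMSO by any amount were 34 of the 35 with SFA and 33 with SFE, beside 51.4% and 55.2% of all genes. This count was not redone under other scalings. With SFE, GSR and SRXN1 stood at 0.99 on that scale, just short of the limit of 1. NR0B1, a nuclear receptor gene, stood at 27.6 FPKM with SFA, 16.1 with SFE and 4.4 with DMSO, 6.29-fold (5.4 to 7.34) and 3.67-fold (3.12 to 4.32) above DMSO. PTGR1, a prostaglandin reductase, stood at 25.8, 23.2 and 6.88 FPKM with SFA, SFE and DMSO. NQO1, a quinone reductase, stood at 112, 110 and 60.7 FPKM, which is 1.85-fold (1.79 to 1.91) and 1.82-fold (1.76 to 1.88). Of the 35 targets 23 overlap another listed gene, PTGR1 and NQO1 among them.

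Genes that share substrates with the members are given by their counts, to be read against the 1.36% and 1.34% of all genes at least 2-fold higher and lower with SFA, and the 1.37% and 1.01% with SFE. Among 13 measured carbonyl reductases of the short-chain family, 1 was at least 2-fold higher with each compound: DHRS3, a retinal reductase, at 8.54 FPKM with SFA, 8.31 with SFE and 3.18 with DMSO. CBR1 and CBR3, carbonyl reductases that also act on prostaglandins and quinones, were 1.58-fold (1.47 to 1.7) and 2.0-fold (1.55 to 2.6) above DMSO with SFA, and 1.42-fold (1.32 to 1.52) and 1.55-fold (1.18 to 2.04) with SFE. DHRS13, another reductase of this list, stood at 1.91 FPKM with SFA, 5.08 with SFE and 2.08 with DMSO. By counts it was 2.44-fold with SFE (2.04 to 2.92), though short of the limit on the log2(FPKM + 1) scale. None of 12 measured aldehyde dehydrogenases was at least 2-fold from DMSO with either compound, and the list had medians of 0.01 with SFA and 0.04 with SFE. ALDH1B1, a mitochondrial one, stood at 41.1, 45.5 and 53.9 FPKM with SFA, SFE and DMSO.

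In steroid hormone metabolism, the pathway of the AKR1C enzymes, none of 12 measured genes was at least 2-fold from DMSO, with medians of −0.06 with SFA and −0.12 with SFE. HSD17B1, of the same list, was not among them because it stayed under 1 FPKM (0.98 with SFA, 0.154 with SFE, 0.0628 with DMSO). By counts (102, 16 and 9) it was 15.6-fold above DMSO with SFA (7.9 to 35.1) and 2.45-fold with SFE (1.02 to 6.28). Its listed span overlaps another gene. SRD5A1, which makes the dihydrotestosterone that AKR1C2 reduces, stood at 9.58 FPKM with SFA, 10.5 with SFE and 10.0 with DMSO. CYP11A1, which makes pregnenolone from cholesterol, was 2.01-fold by counts with SFA (1.58 to 2.55) and 2.22-fold with SFE (1.76 to 2.82), but its low levels of 1.9, 2.1 and 0.945 FPKM with SFA, SFE and DMSO kept it under that limit. In prostaglandin synthesis and breakdown 1 of 8 measured genes, PTGR1, was at least 2-fold higher with each compound, and HPGD, which inactivates prostaglandins and stayed under 1 FPKM, had 8, 6 and 25 counts with SFA, SFE and DMSO. In retinoid metabolism, of 10 measured genes, DHRS3 was at least 2-fold higher with each compound. None of 15 measured genes of NADPH supply, the cofactor of these reductases, and none of 5 of the polyol and glucuronate pathways was at least 2-fold from DMSO. Of the 15 NADPH supply genes 10 lay above DMSO and 5 below with each compound. Over all genes 51.4% lay above DMSO with SFA and 55.2% with SFE. PGD, an NADPH-producing enzyme of the pentose phosphate pathway, was 1.45-fold above DMSO with SFA (1.4 to 1.5) and 1.22-fold with SFE (1.17 to 1.27). The largest difference of the list was that of NADK, at 0.55-fold the DMSO level with SFA (0.509 to 0.594) and 0.959-fold with SFE (0.898 to 1.02).

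The genes whose pattern lay nearest to AKR1C1 were looked for among 4932 protein-coding genes at 5 FPKM or more in their highest library, by the Euclidean distance between the pairs of log2(FPKM + 1) differences from DMSO. With 3 libraries this likeness rests on 2 differences per gene. The nearest were ETV4 (distance 0.204), BCL2L1 (0.326), H2AFJ (0.338), TMEM164 (0.403) and RP11-385D13.1 (0.516). Their DMSO levels were 0.725 to 1.46 FPKM, beside 8.63 for AKR1C1, so the added 1 FPKM shrank their differences more. By counts all 5 had larger folds than AKR1C1. These were 8.98 to 12.7 with SFA and 6.52 to 13.4 with SFE, beside 7.22 and 4.82 for AKR1C1. For AKR1B10 they were ECI1 (0.0228), SLC52A2 (0.0289), HDHD3 (0.0318), SULT1A3 (0.0394) and HIST1H2AJ (0.0464).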

How the data were processed

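RNA was sequenced from 3 libraries of AGS cells (SFA, SFE and DMSO). Per the labels' protocols, Trizol was used for extraction and rRNA was removed. The submitters' processing notes name HISAT2 2.0.4, StringTie 1.2.3 and the hg38 build, while the counter, its strand setting and the annotation release are not given in the sources used here. Raw counts per gene identifier were deposited by the authors. The authors also deposited FPKM, which equalled the count over 1 length per identifier and the library's total count to within 0.0831%. Folds are ratios of counts over library totals with exact conditional (Clopper-Pearson) 95% intervals (SciPy 1.17.1). The intervals cover counting error only, since each group is 1 library. Reads were not counted by molecular identifier, which the intervals do not allow for. The folds and intervals were tested on simulated data that held counting error alone, which checks the code and not the spread between cultures. Calls use log2(FPKM + 1) differences, which understate changes of low genes, on 1 identifier per name (the highest mean FPKM) with a highest library at or above 1 FPKM. With 1 library per group no test was possible.

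Overlap was judged from listed spans (56.1% of identifiers overlap another). Scaling alternatives were TMM (edgeR 4.0.16) and median-ratio factors. Gene models came from GENCODE 29, whose spans differ from the listed ones for AKR1C1 and AKR1C2, and start regions from RefSeq (GRCh38.p14), which gave windows for 6 of the 7 genes. Named genes were all members and other family genes, up to 4 genes per list with the largest difference, CBR1, CBR3, NQO1, SORD, HPGD and SRD5A1, and the 5 nearest in pattern, of which those bearing on the members are described. The members and lists were chosen with earlier results of these data known. HSD17B1, GSR, SRXN1, CYP4F11, KRT19 and EPCAM were named outside the naming rule, after the data were seen. A result on the retinoid genes is not reported here.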

Additional observations from a re-analysis of the deposited data

How the results depend on the processing

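No paired analysis was possible because each group has 1 library, and leaving out a library would remove its group. The count of 3 members at least 2-fold higher with SFA and with SFE held with a pseudocount of 0.1 FPKM, with no filter, at 5 FPKM, under both scalings and with FPKM summed over identifiers. It was 0 of 4 with each compound once overlapping genes were left out, because the AKR1C genes are then not counted. With AKR1C3 as ENSG00000196139 it was 3 with SFA and 2 with SFE. The AKR1C sum was 5.95-fold with SFA under TMM, and 3.89-fold and 3.84-fold with SFE under median-ratio and TMM scaling. Of 52 recomputed ratios of single members, 42 stayed within the counting interval and 10 moved outside it. Those of AKR1A1, AKR7A2 and AKR1B10 with SFE, whose intervals include 1, fell below 1 under both scalings and count among the 42. No ratio whose interval excluded 1 crossed it, but the scalings multiply each ratio only by 0.935 to 0.977.

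Over all genes, 452 were at least 2-fold higher and 374 lower with SFA, and 464 and 282 with SFE, at a pseudocount of 0.1 FPKM. At a filter of 5 FPKM these were 98 and 95 with SFA and 94 and 72 with SFE, and without overlapping genes 55 and 48 with SFA and 47 and 33 with SFE. The split of 160 higher and 118 lower with SFE became 130 and 144 under median-ratio scaling and 127 and 148 under TMM. Depth limits the genes with few counts, among them AKR1B15, AKR7A3 and AKR7L.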
